A study of Mus musculus with 9 samples.

Results

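The BCL2 family genes analysed here are Bid, Mcl1, Bcl2, Bcl2l1, Bcl2l11, Bax, Bak1, Bad, Bbc3 and Pmaip1. These 10 genes were chosen by name, with earlier results of these data known. Every probe set that the platform annotation assigns to exactly 1 of these symbols was taken. These were 29 of the 45101 probe sets on the array, and they covered 9 of the 10 genes, among 18193 named genes in all: 3 for Bid, 6 for Mcl1, 5 for Bcl2, 4 for Bcl2l1, 5 for Bcl2l11, 2 for Bak1, 2 for Bad, 1 for Bbc3 and 1 for Pmaip1. Bax was not analysed here. RNA was measured on 9 Affymetrix mouse arrays from preSC, cultured preneoplastic cells of the lung. Per the labels, these neuroendocrine cells came from lungs of mice on a mixed C57BL/6 and 129/Sv background whose conditional alleles Rb, p53 and p130 were exposed to Adeno-Cre virus, and this genotype label is carried by all 4 groups. The groups were preSC with no transduced MYC gene (3 arrays) and preSC transduced with retro-L-Myc, retro-C-Myc or retro-N-Myc virus (2 arrays of each). The labels name no empty-vector control, no time after infection and no clone number, and they say of the L-Myc cells that they had become transformed. All cells were grown in RPMI1640 medium with bovine growth serum. The molecule field reads polyA RNA for preSC and L-Myc but total RNA for C-Myc and N-Myc. The design text calls the replicates biological, but no label says that they came from separate cultures, so p-values measure the spread between these arrays.

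BCL2 family proteins control the permeability of the outer mitochondrial membrane, and through it the release of cytochrome c and the start of the caspase cascade. Guardian members (BCL-2, BCL-XL, MCL-1) hold the pore-forming effectors (BAX, BAK) in check, and BH3-only members (BIM, BID, BAD, PUMA, NOXA) bind the guardians, and some of them the effectors, when a cell is stressed. High MYC activity is known to prime cells for this form of death, and the guardians are frequently expressed at high levels in small cell lung cancer.

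Values are log2 RMA signals, that is, background-corrected, quantile-normalised and summarised to 1 number per probe set and array, so 1 unit is a 2-fold difference. A level may be compared between arrays for 1 probe set, but not between probe sets. The fit used limma over all probe sets above the 40th percentile of their array (5.28 to 5.34) on at least 2 arrays, with Benjamini-Hochberg adjustment over all 29201 of them. "Rose", "fell" and "called" mean an adjusted p below 0.05. Of the 29 probe sets, 26 passed this filter and 3 did not and were not tested. Of the 26, 4 were above the filter on fewer than 2 preSC arrays (Bid 1448560_at, Bcl2l1 1426191_a_at, Bcl2l11 1426334_a_at and Bak1 1425716_s_at), so they entered the test through the transduced arrays, where they are high.

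Against preSC, the same main changes appeared with each of the 3 MYC viruses. Bid rose between 4.03-fold and 4.50-fold on probe set 1417045_at, 2 probe sets of Mcl1 rose between 2.74-fold and 4.86-fold, Bcl2l1 1420887_a_at rose between 2.98-fold and 3.30-fold, and the single Bbc3 probe set rose between 1.49-fold and 1.60-fold. Bcl2l11 had no single direction: 1 of its probe sets fell with every virus, and another, which was below the filter level on preSC, was called higher with every virus. Bcl2l1 1426191_a_at was between 3.51-fold and 4.19-fold higher, but it entered the test through the transduced arrays and is given as a description. The other tested sets of Mcl1 and Bcl2l1 rose less or did not pass, and Bak1 did not pass in any of the 3 comparisons.

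In counts, 11 of 26 probe sets were called in L-Myc against preSC (42.3%), 9 higher and 2 lower, where 22.0% of all probe sets tested were called (11.6% higher and 10.4% lower). In C-Myc against preSC it was 12 of 26 (46.2%), 9 higher and 3 lower, against 29.7% of all (15.1% higher and 14.6% lower), and in N-Myc against preSC 11 of 26 (42.3%), 9 higher and 2 lower, against 34.7% of all (17.3% in each direction). The members' median difference was 0.11, 0.12 and 0.31 in that order, with -0.01, -0.01 and 0.01 over all probe sets tested. These 3 comparisons share the same 3 preSC arrays, and probe sets of 1 gene share a transcript. The members were chosen with earlier results of these data known, and 4 of the 26 passed the filter through high transduced arrays. The counts are therefore a description only. In all 3 comparisons 8 probe sets were higher and 1 was lower, 5 were called in 1 or 2 of them, and 12 were called in none, where of all probe sets tested 9.15%, 7.40%, 25.3% and 58.2% fell in these classes. Of the 22 member sets above the filter on at least 2 preSC arrays, the numbers were 5, 1, 5 and 11. With preSC 1 and 2 averaged to 1 array and N-Myc 1 and 2 averaged to 1, since each pair was close to identical, the calls fell to 6, 7 and 4, against 6.30%, 9.78% and 1.55% of all probe sets. The calls left in that fit were both Bid sets and Mcl1 1416881_at and 1448503_at in all 3 comparisons, Bcl2l1 1426191_a_at and Bcl2l11 1456005_a_at with L-Myc and C-Myc, and Bcl2l1 1420887_a_at with C-Myc. The L-Myc count was 7 without L-Myc 1 and 6 without L-Myc 2 (14.4% and 11.5% of all), and the N-Myc count was 6 without either N-Myc array (13% and 13.6% of all).

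Several array controls separated preSC from all transduced arrays as well. The 5' minus 3' signal difference of the Actb control ran from -0.85 to -0.62 on the 3 preSC arrays and from -0.31 to -0.20 on the 6 transduced arrays, that of Gapdh from -0.13 to -0.02 and from 0.17 to 0.24, and that of the spiked-in Dap transcript from -3.66 to -3.40 and from -1.68 to -1.51. The 18S ribosomal RNA control at its 3' probe set was 12.58 to 13.74 on preSC and 8.22 to 9.27 on transduced arrays. Every comparison with preSC therefore coincides with a difference in these controls, and for a given member the virus and this array difference cannot be told apart. In C-Myc and N-Myc against preSC the labelled molecule differs as well, and it cannot be told apart from the virus either. Neuroendocrine markers were above the filter level on all 9 arrays for 7 of 7 genes measured, with a list mean of 10.82 to 10.92 on preSC and 10.39 to 10.76 on transduced arrays. Of the markers of other cells, Col1a1, Col1a2, Col3a1, Lum, Pecam1, Cdh5, Tek, Ptprc, Tyrobp, Cd79a, Scgb1a1 and Sftpa1 were above it on no array. The lists for fibroblasts (7 genes), endothelium (4), leukocytes (7) and lung epithelium (5) had 1 (Pdgfra), 1 (Kdr), 3 (Lyz2, Laptm5 and Cd3e) and 2 (Sftpc and Sftpb) genes above it on all 9. Their list means were 5.07 to 5.42, 4.61 to 4.92, 5.24 to 5.84 and 5.34 to 5.83 on preSC and 4.96 to 5.55, 4.67 to 4.77, 5.44 to 6.30 and 5.42 to 6.43 on transduced arrays. The part of these in the results was not tested, and in such bulk RNA a change in a few cells and a change in every cell cannot be told apart.

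**Figure D1:**
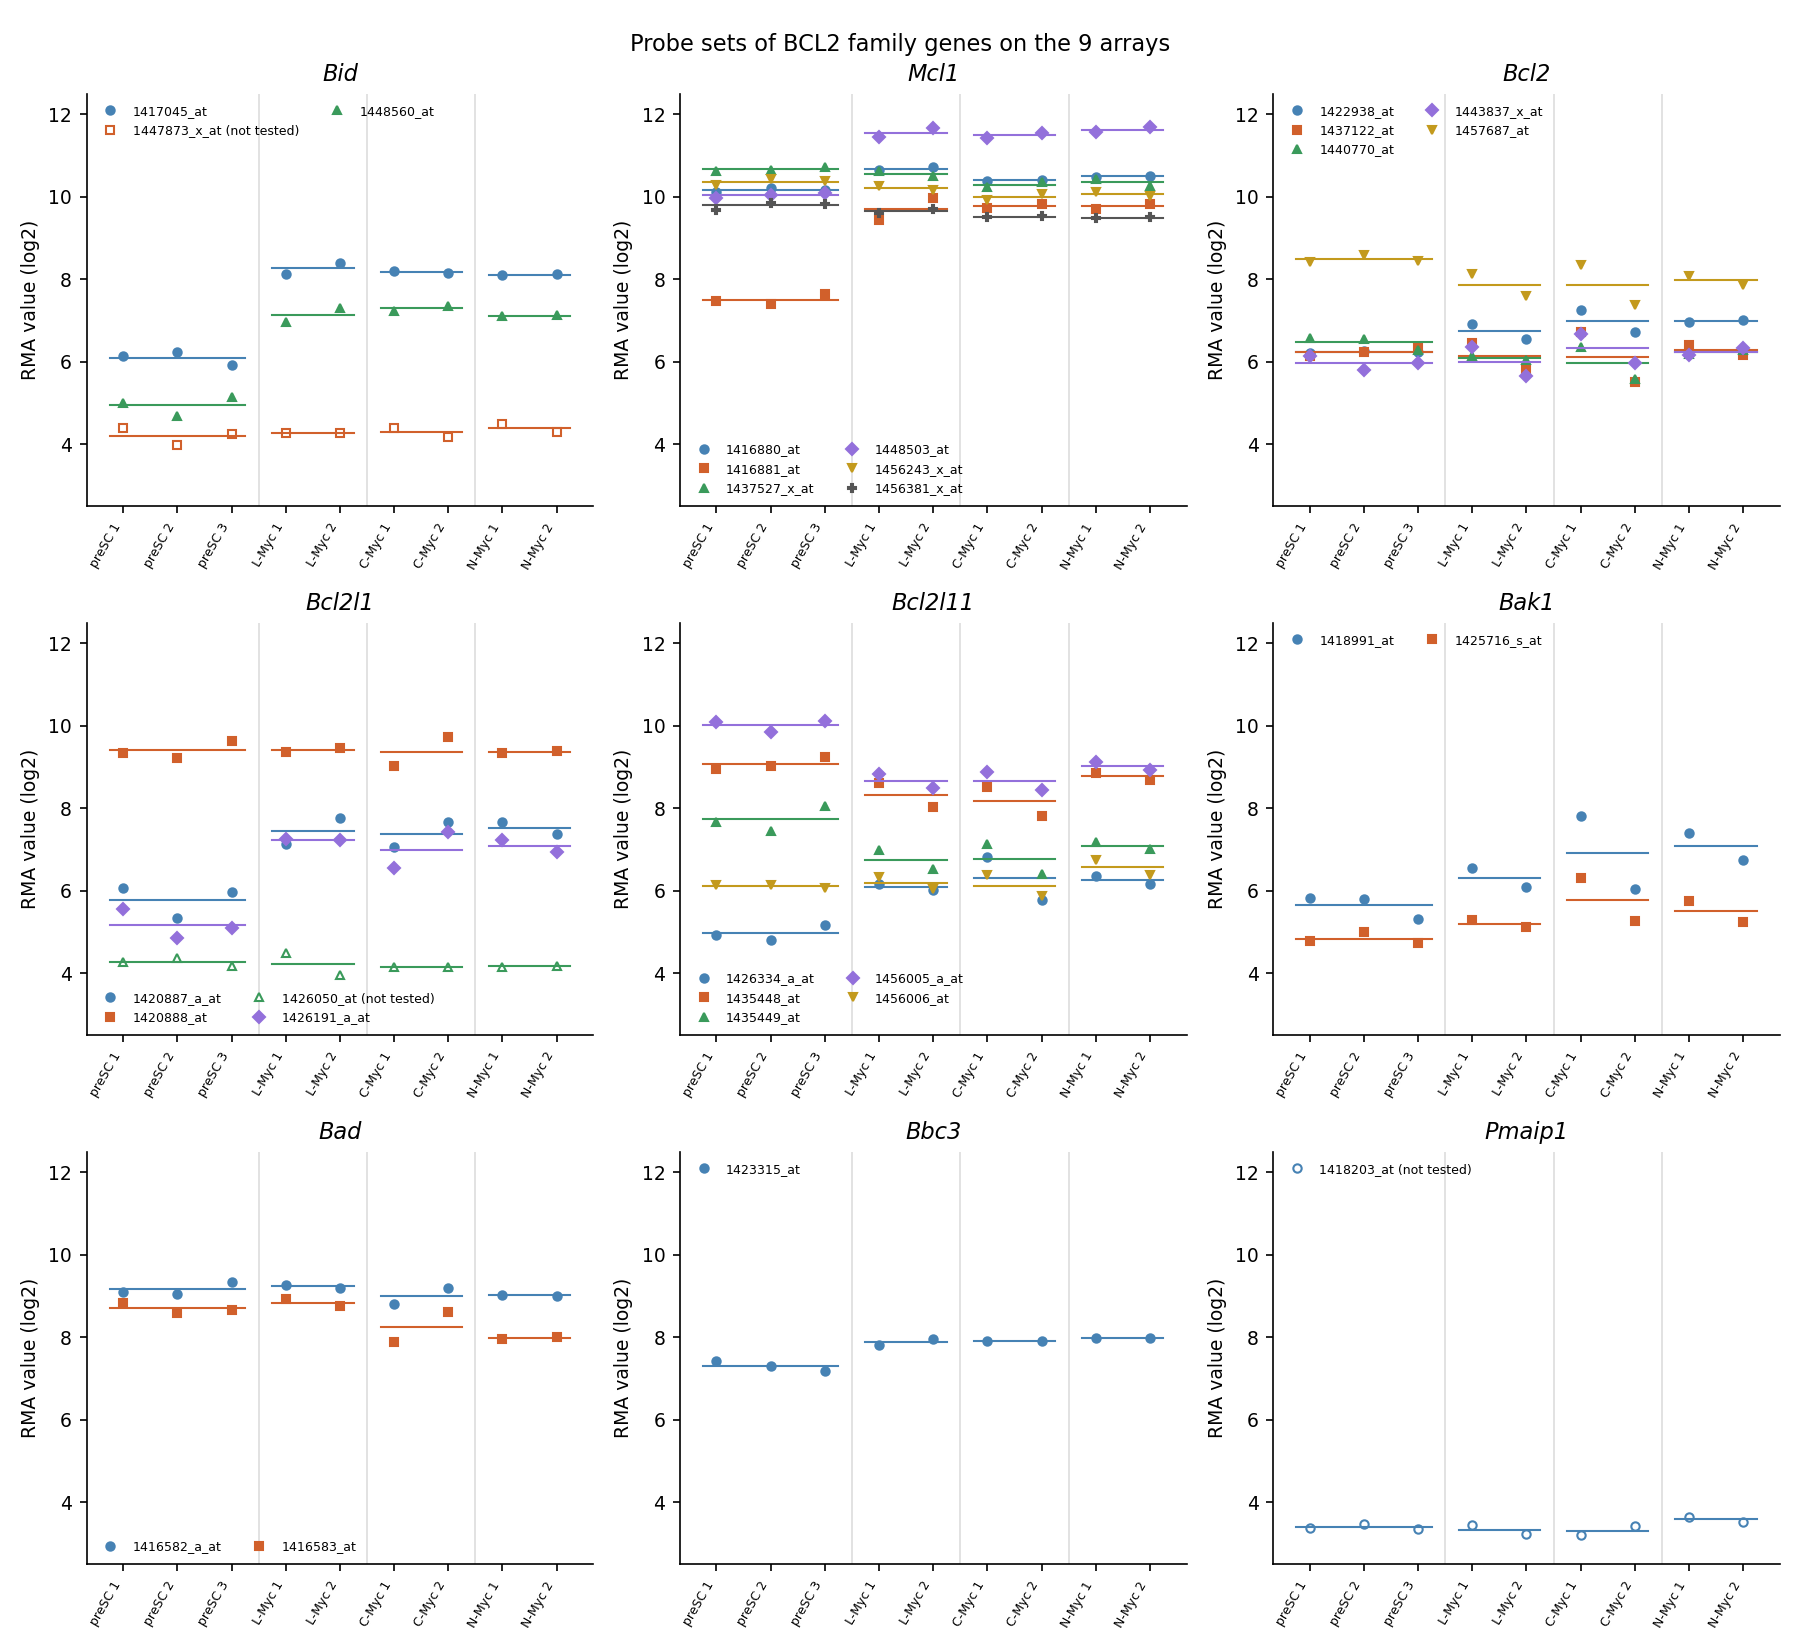
Log2 RMA value (vertical axis) of each probe set of the 9 BCL2 family genes on each of the 9 arrays (horizontal axis). Points are single arrays, horizontal lines are group means, and open points are probe sets below the filter; Bid 1417045_at lies between 5.91 and 6.23 on the preSC arrays and between 8.09 and 8.40 on the transduced arrays.

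Promoter sequences are shown for Bid and Mcl1, which had the largest changes, and for Bbc3, whose window holds the E-box CACGTG that MYC proteins and their partner MAX are known to bind. The windows run from 250 bases before to 50 bases after the annotated gene start, are taken from RefSeq on GRCm38.p6 and are written 5′ to 3′ on the strand of the gene. Capitals mark CACGTG, which reads the same on both strands.

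Bid, chr6:120916775-120917074, minus strand: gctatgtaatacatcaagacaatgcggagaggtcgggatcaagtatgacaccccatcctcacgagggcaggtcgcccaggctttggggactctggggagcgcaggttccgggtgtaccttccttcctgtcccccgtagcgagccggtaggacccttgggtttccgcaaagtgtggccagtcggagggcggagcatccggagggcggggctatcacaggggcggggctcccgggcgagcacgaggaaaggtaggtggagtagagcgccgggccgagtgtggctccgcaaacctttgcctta
Mcl1, chr3:95658471-95658770, plus strand: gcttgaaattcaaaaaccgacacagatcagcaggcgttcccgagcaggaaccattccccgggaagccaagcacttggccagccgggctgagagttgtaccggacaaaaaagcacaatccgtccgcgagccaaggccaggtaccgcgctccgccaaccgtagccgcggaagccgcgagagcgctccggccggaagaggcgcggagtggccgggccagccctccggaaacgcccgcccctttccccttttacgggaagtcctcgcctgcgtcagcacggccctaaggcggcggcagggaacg
Bbc3, chr7:16310181-16310480, plus strand: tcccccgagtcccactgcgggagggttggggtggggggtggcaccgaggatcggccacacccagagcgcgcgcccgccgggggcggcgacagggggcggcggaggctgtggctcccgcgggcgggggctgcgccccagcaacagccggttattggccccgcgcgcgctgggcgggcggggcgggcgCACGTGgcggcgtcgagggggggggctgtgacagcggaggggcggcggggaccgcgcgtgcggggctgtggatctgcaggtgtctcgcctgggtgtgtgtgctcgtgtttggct

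The Bbc3 motif begins at position -64 from the gene start, in window 3 of the 3 annotated for that gene. RefSeq windows were matched for 8 of the 9 genes, 14 windows in all, and CACGTG was found in 1 of the 14, compared with 7.2% of all 32851 windows of 300 bases. The looser form CANNTG, which contains CACGTG, was absent from the Bid window and found at 1 place in the Mcl1 window and at 2 in the Bbc3 window, and 72.3% of all windows hold it. Binding was not measured in these samples.

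The BH3-only genes come first. Bid encodes a BH3-only protein that caspase-8 cleaves and that links death receptors to mitochondria. On probe set 1417045_at it was 6.15, 6.23 and 5.91 on the preSC arrays, 8.14 and 8.40 on the L-Myc arrays, 8.20 and 8.15 on the C-Myc arrays, and 8.09 and 8.12 on the N-Myc arrays. All 6 transduced arrays lay above all preSC arrays by a wide margin. The rise was 2.17 (SE 0.15, limma adjusted p = 0.000310) with L-Myc, 2.08 (SE 0.15, limma adjusted p = 0.000297) with C-Myc and 2.01 (SE 0.15, limma adjusted p = 0.000339) with N-Myc. Group means were ordered L-Myc (8.27 ± 0.18, SD, n = 2), C-Myc (8.17 ± 0.04, SD, n = 2), N-Myc (8.11 ± 0.02, SD, n = 2) and preSC (6.10 ± 0.16, SD, n = 3). The L-Myc and C-Myc arrays overlapped, the C-Myc and N-Myc arrays did not, and among these neighbours the step from N-Myc to preSC was the one that passed the test.

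A second Bid probe set, 1448560_at, was below the filter level on all preSC arrays and was tested because it was high on the transduced ones, so it is given as a description. It was 5.01, 4.68 and 5.14 on the preSC arrays, 6.96 and 7.31 with L-Myc, 7.23 and 7.35 with C-Myc, and 7.10 and 7.13 with N-Myc. The rises were 2.20, 2.35 and 2.17 (SE 0.18 each). The third, 1447873_x_at, lay between 3.98 and 4.49 on all 9 arrays, below the filter, and was not tested. The suffix x marks probe sets whose probes may also match other sequences. Bid 1417045_at kept its call in each alternative fit, including those that left out 1 array.

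Bcl2l11 encodes BIM, a strong BH3-only killer that binds every guardian, and its 5 probe sets disagreed. The set that fell most, 1456005_a_at, was 10.08, 9.84 and 10.11 on preSC, 8.82 and 8.48 with L-Myc, 8.89 and 8.43 with C-Myc, and 9.11 and 8.93 with N-Myc. No transduced array reached the lowest preSC array. The differences were -1.36 (SE 0.19, limma adjusted p = 0.00309) with L-Myc, -1.35 (SE 0.19, limma adjusted p = 0.00256) with C-Myc and -0.99 (SE 0.19, limma adjusted p = 0.00715) with N-Myc. The N-Myc call was lost without N-Myc 2 (-0.90, limma adjusted p = 0.0637).

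Bcl2l11 probe set 1426334_a_at went the other way. It was 4.94, 4.82 and 5.17 on preSC, all below the filter level, 6.17 and 6.03 with L-Myc, 6.82 and 5.79 with C-Myc, and 6.36 and 6.16 with N-Myc. It was tested because it was high on the transduced arrays, so it is given as a description. The C-Myc arrays differed from each other by 1.03. The differences from preSC were 1.13, 1.33 and 1.29 (SE 0.28 each) with L-Myc, C-Myc and N-Myc. The higher call with L-Myc was lost without preSC 1, preSC 2 or any L-Myc or N-Myc array. That with N-Myc was lost without either N-Myc array.

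The other 3 Bcl2l11 sets lay between these. Probe set 1435449_at was 7.67, 7.46 and 8.06 on preSC, 6.98 and 6.53 with L-Myc, 7.14 and 6.40 with C-Myc, and 7.19 and 7.00 with N-Myc. It fell by 0.98 with L-Myc and by 0.96 with C-Myc (SE 0.27 each, limma adjusted p = 0.0405 and 0.0344) and differed by -0.63 with N-Myc without passing (limma adjusted p = 0.111). Its arrays did not overlap with preSC in any group. The L-Myc call was lost without any 1 of the preSC, L-Myc or N-Myc arrays (differences from -1.20 to -0.75, limma adjusted p from 0.0578 to 0.207). The C-Myc call of this set was lost without preSC 1 (0.0777), preSC 3 (0.0791), C-Myc 2 (0.158) or either N-Myc array (0.0597 each), and with only preSC and C-Myc in the fit (0.0711). Probe set 1435448_at was 8.96, 9.02 and 9.23 on preSC, 8.62 and 8.02 with L-Myc, 8.52 and 7.82 with C-Myc, and 8.86 and 8.69 with N-Myc. It fell by 0.90 with C-Myc (SE 0.25, limma adjusted p = 0.0327) and differed by -0.75 and -0.29 with L-Myc and N-Myc without passing. It was called with L-Myc without either C-Myc array, where more of all probe sets were called too. Its C-Myc call was lost without any 1 of the 3 preSC arrays (limma adjusted p from 0.0664 to 0.0769), without C-Myc 2 (-0.55, 0.147) or without either N-Myc array (0.0574 each), and with only preSC and C-Myc in the fit (0.0536). Probe set 1456006_at was 6.14, 6.13 and 6.07 on preSC and between 5.86 and 6.75 on the transduced arrays, and it did not pass in any of the 3 comparisons. When only preSC and N-Myc were fitted, 1435449_at was called lower and 1456006_at higher with N-Myc. Some of the 6378 genes with at least 2 probe sets tested had a higher call on 1 set beside a lower call on another. Their share was 4.69% with L-Myc, 6.63% with C-Myc and 7.04% with N-Myc. In Bcl2l11 the only higher calls of the main fit were on the set below the filter level on all preSC arrays. That set was tested because it was high on the transduced arrays. Bcl2l11 is therefore not ranked against these shares, which are a description only.

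Bbc3 encodes PUMA, a BH3-only protein best known as a p53 target, in cells whose p53 alleles were conditional. Its probe set 1423315_at was 7.42, 7.31 and 7.18 on preSC, 7.81 and 7.95 with L-Myc, 7.91 and 7.91 with C-Myc, and 7.99 and 7.98 with N-Myc. Each transduced array exceeded each preSC array. The rise was small, 0.57 (SE 0.13, limma adjusted p = 0.0182) with L-Myc, 0.61 (SE 0.13, limma adjusted p = 0.0119) with C-Myc and 0.68 (SE 0.13, limma adjusted p = 0.00683) with N-Myc. The L-Myc call was lost without preSC 2 (limma adjusted p = 0.0582), L-Myc 1 (0.0504) or L-Myc 2 (0.108) and with the replicate number as a block (0.0664), and the N-Myc call without N-Myc 1 (0.0544) or N-Myc 2 (0.0522).

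Bad encodes a BH3-only protein that survival kinases hold inactive by phosphorylation. On 1416583_at it was 8.83, 8.60 and 8.66 on preSC, 8.93 and 8.75 with L-Myc, 7.89 and 8.61 with C-Myc, and 7.96 and 8.00 with N-Myc. The N-Myc arrays and C-Myc 1 were low, while C-Myc 2 and the L-Myc arrays lay near preSC. It fell by 0.72 with N-Myc (SE 0.21, limma adjusted p = 0.0344) and differed by 0.14 with L-Myc and by -0.45 with C-Myc without passing. The N-Myc call was lost without any 1 of the 3 preSC or 2 N-Myc arrays (limma adjusted p from 0.0633 to 0.156), with arrays centred on their median (0.0515) and with the replicate block (0.0765). The other set, 1416582_a_at, lay between 8.80 and 9.33 on the 9 arrays and passed in no comparison with preSC. Pmaip1, which encodes NOXA, a BH3-only partner of MCL-1, lay between 3.20 and 3.65 on all 9 arrays, below the filter, and was not tested.

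Among the guardians, Mcl1 had the most probe sets. Mcl1 encodes MCL-1, a short-lived protein whose loss many tumour cells do not survive. Its 6 sets split by suffix, with the 3 plain sets higher in the transduced groups and the 3 with the suffix x lower or near preSC. On 1416881_at it was 7.47, 7.40 and 7.64 on preSC, 9.43 and 9.98 with L-Myc, 9.73 and 9.83 with C-Myc, and 9.70 and 9.83 with N-Myc. On 1448503_at it was 9.97, 10.04 and 10.10 on preSC, 11.44 and 11.66 with L-Myc, 11.42 and 11.55 with C-Myc, and 11.57 and 11.69 with N-Myc. On both, the lowest transduced array stood over 1 log2 unit above the highest preSC array. The first rose by 2.20, 2.28 and 2.26 (SE 0.18 each, limma adjusted p at most 0.000467) and the second by 1.51, 1.45 and 1.59 (SE 0.13 each, limma adjusted p at most 0.000583), in the order L-Myc, C-Myc, N-Myc.

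Mcl1 1416880_at moved less. It was 10.13, 10.21 and 10.15 on preSC, 10.65 and 10.71 with L-Myc, 10.39 and 10.41 with C-Myc, and 10.48 and 10.50 with N-Myc. It rose by 0.52 with L-Myc (SE 0.11, limma adjusted p = 0.0167) and differed by 0.23 and 0.33 with C-Myc and N-Myc without passing (limma adjusted p = 0.161 and 0.0578). It was called with N-Myc when the filter was left out, after centring and with trend and robust eBayes. The L-Myc call was lost without preSC 1 (limma adjusted p = 0.0562), L-Myc 1 (0.0616) or L-Myc 2 (0.0906) and with the replicate block (0.0568).

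The 3 Mcl1 sets with the suffix x were slightly lower in the transduced groups, and none passed. 1437527_x_at was 10.63, 10.66 and 10.72 on preSC, 10.61 and 10.50 with L-Myc, 10.23 and 10.36 with C-Myc, and 10.42 and 10.27 with N-Myc. 1456243_x_at was 10.27, 10.43 and 10.38 on preSC, 10.25 and 10.17 with L-Myc, 9.91 and 10.07 with C-Myc, and 10.11 and 10.01 with N-Myc. 1456381_x_at was 9.69, 9.86 and 9.83 on preSC, 9.60 and 9.71 with L-Myc, 9.50 and 9.53 with C-Myc, and 9.49 and 9.50 with N-Myc. Across these 3 sets the differences from preSC ran from -0.38 to -0.11, and the L-Myc arrays of the last set overlapped with preSC. The first of them was called lower with C-Myc when the filter was left out, when arrays were quantile-normalised again and with trend and robust eBayes. The 6 sets of Mcl1 thus gave no single size of change. Where the probes of each set lie along the transcript was not analysed here.

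Bcl2l1 encodes the guardian BCL-XL and, by alternative splicing, the pro-apoptotic BCL-XS. On 1420887_a_at it was 6.06, 5.33 and 5.97 on preSC, 7.13 and 7.77 with L-Myc, 7.05 and 7.68 with C-Myc, and 7.66 and 7.37 with N-Myc. On 1426191_a_at it was 5.56, 4.87 and 5.09 on preSC, 7.25 and 7.23 with L-Myc, 6.55 and 7.42 with C-Myc, and 7.24 and 6.94 with N-Myc. On the first, no array of a transduced group overlapped with preSC. It rose by 1.66, 1.58 and 1.72 (SE 0.31 each, limma adjusted p = 0.00881, 0.00856 and 0.00549). The second was above the filter on fewer than 2 preSC arrays and was tested because it was high on the transduced ones. It is therefore given as a description, with differences of 2.07, 1.81 and 1.91 (SE 0.29 each). On 1420887_a_at the L-Myc call was lost without L-Myc 2 (1.34, limma adjusted p = 0.0590) and the N-Myc call without N-Myc 1 (1.58, 0.0535). Another set, 1420888_at, was 9.35, 9.22 and 9.63 on preSC and 9.02 to 9.72 on the transduced arrays, with differences of 0.01, -0.03 and -0.04 (SE 0.22 each). The suffix a marks probe sets whose probes match more than 1 transcript of the same gene. The fourth, 1426050_at, lay between 3.97 and 4.50, below the filter.

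Bcl2, which encodes the founding guardian of the family, was called on 1 of 5 probe sets. Probe set 1422938_at was 6.22, 6.26 and 6.23 on preSC, 6.92 and 6.55 with L-Myc, 7.25 and 6.73 with C-Myc, and 6.96 and 7.01 with N-Myc. It rose by 0.76 with C-Myc (SE 0.19, limma adjusted p = 0.0205) and by 0.75 with N-Myc (SE 0.19, limma adjusted p = 0.0185), and differed by 0.50 with L-Myc without passing (limma adjusted p = 0.0960), though it was called there without either C-Myc array. The C-Myc call was lost without preSC 1 (limma adjusted p = 0.0591), preSC 2 (0.0571) or C-Myc 1 (0.50, 0.0993), and the N-Myc call without preSC 1 (0.0529), preSC 2 (0.0514), N-Myc 1 (0.0924) or N-Myc 2 (0.108). The remaining 4 sets passed in no comparison. One of them, 1457687_at, was 8.43, 8.59 and 8.43 on preSC and between 7.37 and 8.34 on the transduced arrays, lower on each of them, with differences of -0.62, -0.63 and -0.51 (SE 0.29 each). Probe set 1457687_at was called lower with L-Myc without either C-Myc array, with C-Myc without C-Myc 1, and with N-Myc when only preSC and N-Myc were fitted. Without either C-Myc array more of all probe sets were called with L-Myc too, which also limits the gain of 1422938_at there. On 1437122_at the preSC arrays were 6.13 to 6.36 and the transduced arrays 5.51 to 6.72, on 1440770_at 6.30 to 6.57 and 5.58 to 6.35, and on 1443837_x_at 5.80 to 6.14 and 5.65 to 6.67, each pair of ranges overlapping.

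Of the effectors, Bak1, which encodes BAK, was measured by 2 sets. On 1418991_at it was 5.84, 5.79 and 5.31 on preSC, 6.55 and 6.09 with L-Myc, 7.82 and 6.03 with C-Myc, and 7.40 and 6.75 with N-Myc. All transduced arrays were above preSC, but C-Myc 1 and C-Myc 2 differed by 1.79, the widest gap of any member probe set within a group. The differences were 0.67, 1.28 and 1.43 (SE 0.49 each), and none passed (limma adjusted p = 0.366, 0.0846 and 0.0549). On 1425716_s_at the preSC arrays were 4.79, 5.01 and 4.74 and the transduced arrays 5.12 to 6.31, with differences of 0.36, 0.94 and 0.66 (SE 0.30 each) that did not pass (limma adjusted p = 0.437, 0.0505 and 0.127). The suffix s marks probes shared with transcripts of another gene. Without C-Myc 2, Bak1 was called higher in C-Myc and in N-Myc on both sets, and without C-Myc 1 it was called in N-Myc on both. Such a fit leaves the gap between the C-Myc arrays out of the error. More of all probe sets were called in it with L-Myc as well. The first set was also called with N-Myc under the stricter filter, after centring, after renewed quantile normalisation and when only preSC and N-Myc were fitted; the second was called with C-Myc after centring and with trend and robust eBayes, and with N-Myc when only preSC and N-Myc were fitted.

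**Figure D2:**
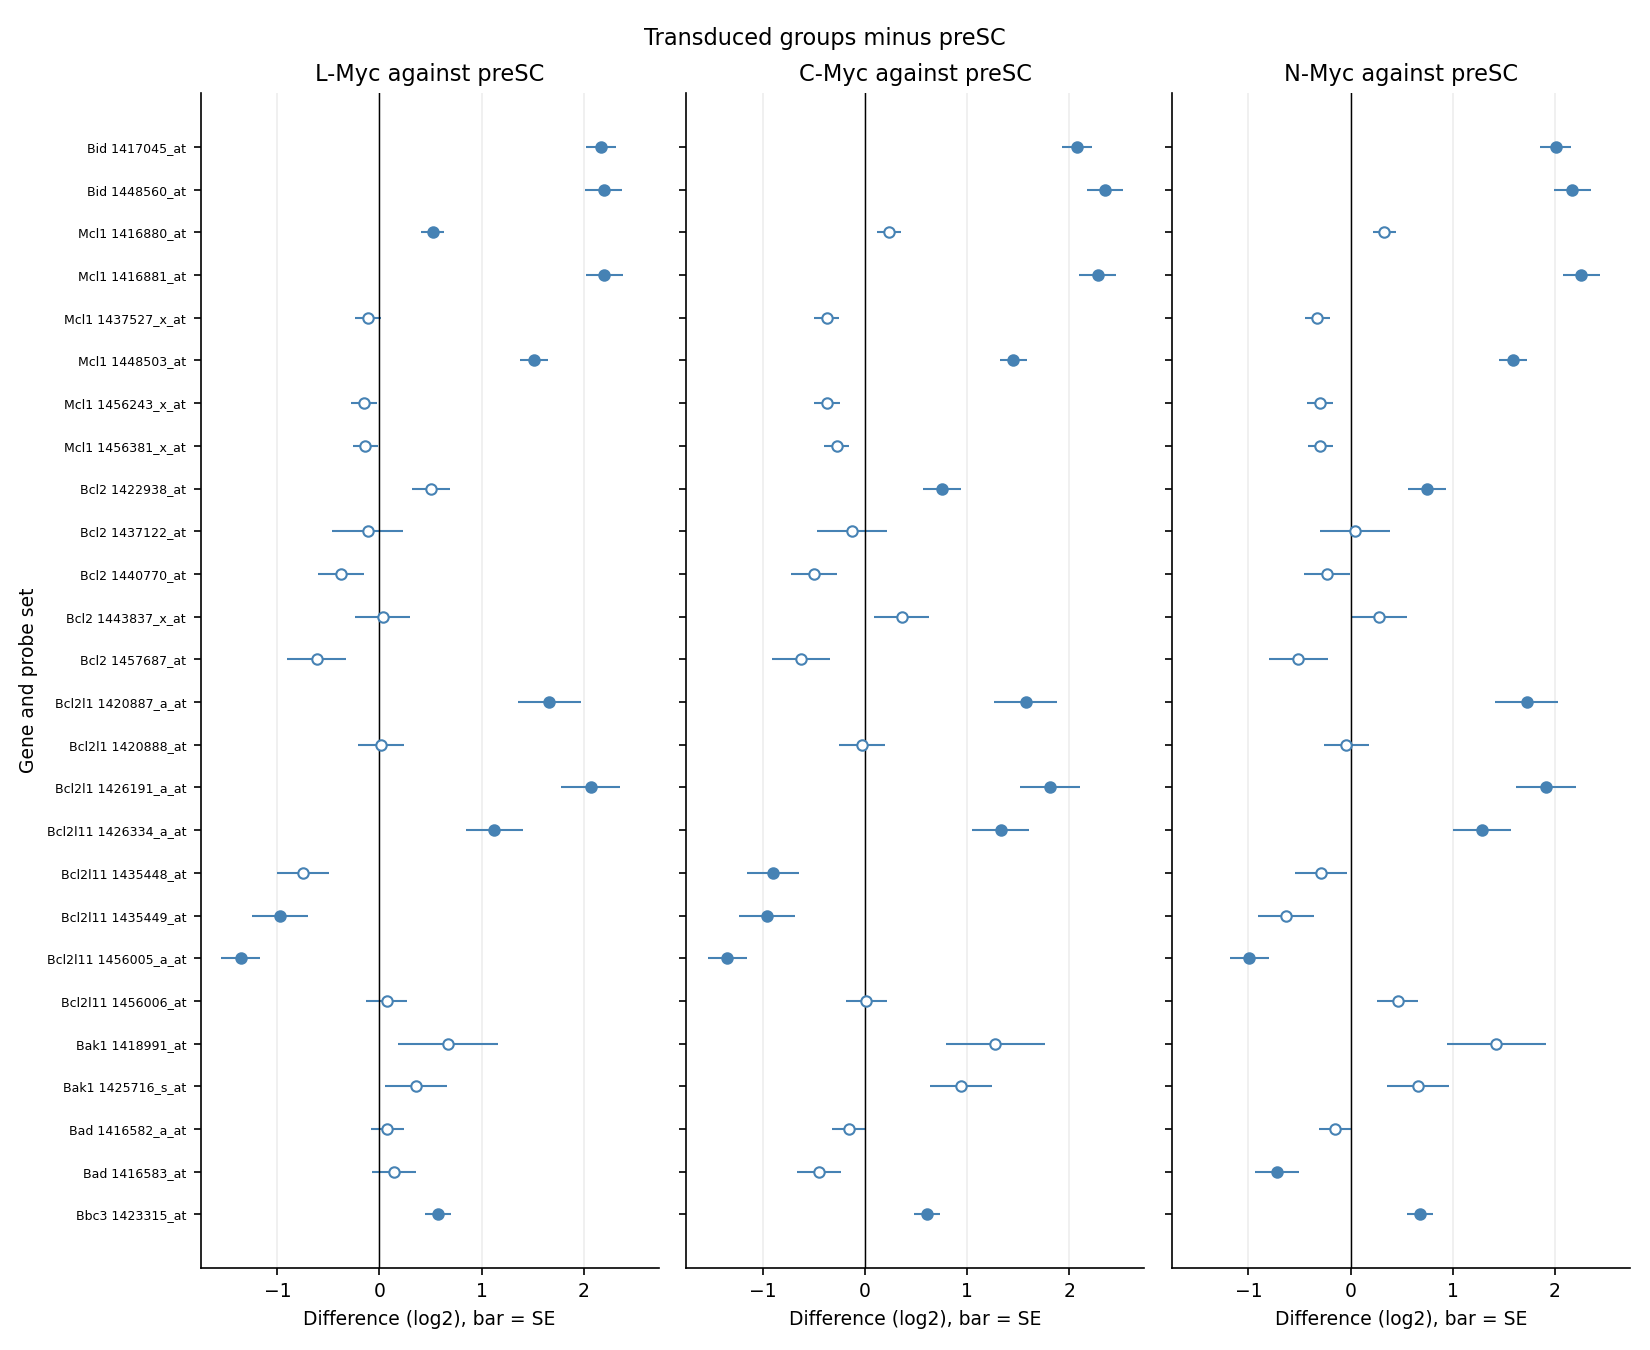
Difference of group means on the log2 scale (horizontal axis) for the 26 tested probe sets (vertical axis), in each transduced group minus preSC. Bars are limma standard errors and filled points passed an adjusted p of 0.05. Bid, Mcl1 1416881_at and Mcl1 1448503_at are filled right of 0 in all 3 panels. Bcl2l11 has filled points on both sides, those right of 0 being 1426334_a_at, which was below the filter on preSC.

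Whether the 3 MYC proteins differed in their effect was asked by comparing the transduced groups directly, which leaves the preSC arrays out of the difference. No member was called between them, with 0 of 26 in L-Myc against C-Myc, L-Myc against N-Myc and C-Myc against N-Myc by limma. Over all probe sets 0%, 0% and 0.00342% were called, so a count of 0 says little about the members. At an unadjusted p below 0.05 there were 1, 1 and 0 member probe sets and 1341, 5452 and 1286 of all 29201, and limma's eBayes with trend and robust settings called 0 members in each as well. For Bid 1417045_at the 95% interval of the difference was -0.28 to 0.47 in L-Myc against C-Myc, -0.22 to 0.54 in L-Myc against N-Myc and -0.31 to 0.45 in C-Myc against N-Myc. For Mcl1 1448503_at these intervals were -0.28 to 0.40, -0.42 to 0.26 and -0.48 to 0.20. Differences between the viruses of up to 0.54 on these 2 probe sets are therefore inside the intervals, and on Bid 1448560_at the intervals reached -0.61 (L-Myc against C-Myc) and 0.63 (C-Myc against N-Myc).

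The widest gap between viruses in relation to its error was at Bad 1416583_at. L-Myc arrays (8.93 and 8.75) exceeded N-Myc arrays (7.96 and 8.00) by 0.86 (95% interval 0.32 to 1.41, limma adjusted p = 0.153) and C-Myc arrays (7.89 and 8.61) by 0.59 (95% interval 0.05 to 1.13, limma adjusted p = 0.858). Neither passed with all 9 arrays, and Bad 1416583_at was called in L-Myc against N-Myc without either C-Myc array, where 8.43% of all probe sets were, and in L-Myc against C-Myc without C-Myc 2, where 4.05% were. The other Bad set differed by 0.22 in L-Myc against N-Myc and by 0.24 in L-Myc against C-Myc, without passing. Since the molecule field reads polyA RNA for L-Myc but total RNA for C-Myc and N-Myc, virus and labelled molecule cannot be told apart. This holds for every member in L-Myc against C-Myc and in L-Myc against N-Myc. Bcl2l11 1435448_at was lower in C-Myc than in N-Myc arrays by 0.61 (95% interval -1.25 to 0.04) and did not pass (limma adjusted p = 0.931).

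**Figure D3:**
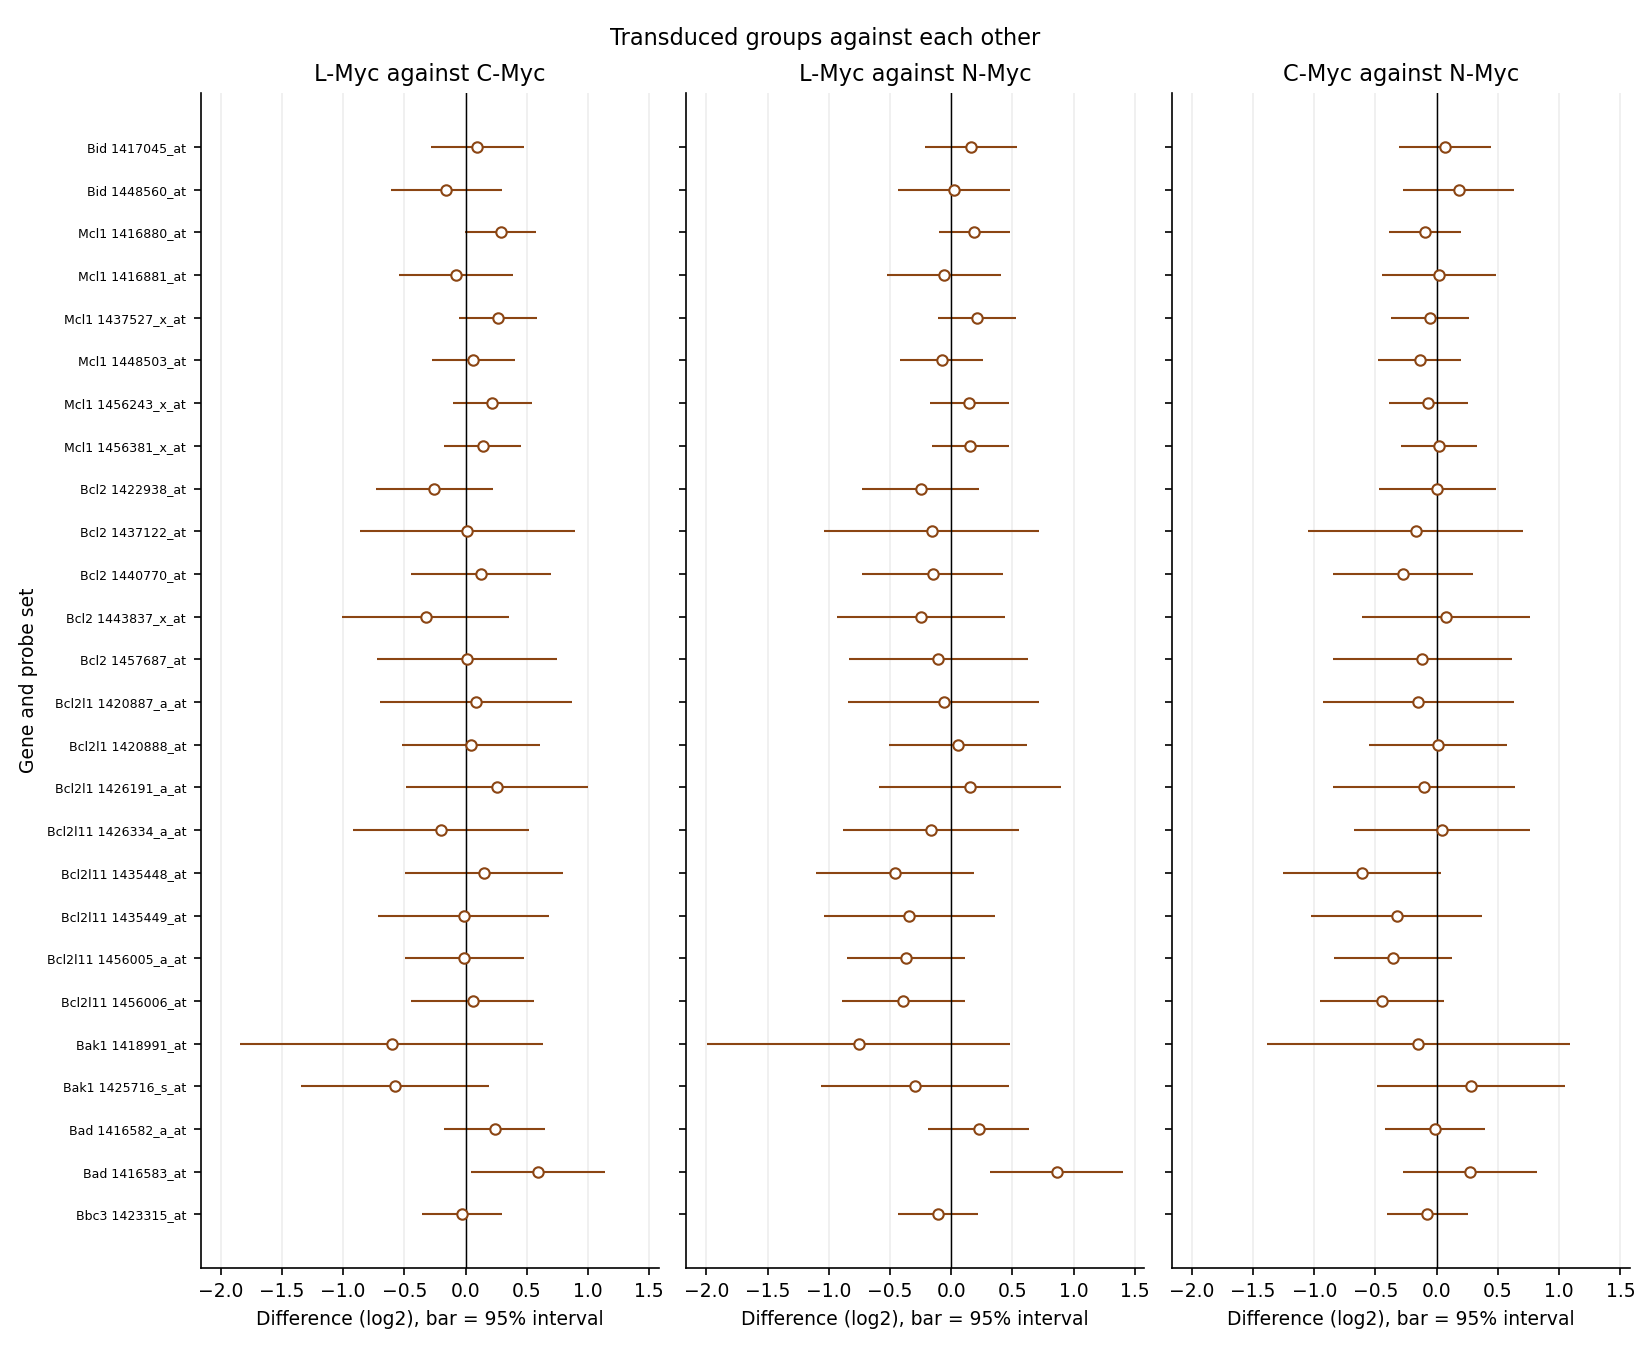
Difference of group means on the log2 scale (horizontal axis) between pairs of transduced groups for the 26 tested probe sets (vertical axis). Bars are 95% intervals of the limma fit and open points did not pass; every point is open, and the Bad 1416583_at intervals for L-Myc against C-Myc (0.05 to 1.13) and L-Myc against N-Myc (0.32 to 1.41) lie above 0.

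Replicates of a group were not equally close for these genes. The median absolute difference over the 26 probe sets was 0.12 between preSC 1 and 2, 0.17 between preSC 1 and 3, 0.22 between preSC 2 and 3, 0.14 between the N-Myc arrays, 0.24 between the L-Myc arrays and 0.58 between the C-Myc arrays. Between C-Myc 1 and 2, 4 member probe sets differed over 2-fold, and in the other within-group pairs none did. Over the whole array 47 probe sets differed that much between preSC 1 and 2, 1909 between preSC 1 and 3, 1807 between preSC 2 and 3, 13 between the N-Myc arrays, 2252 between the L-Myc arrays and 3035 between the C-Myc arrays.

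Other genes of the pathway were read at the brightest tested probe set of each gene. Among 9 tested genes of the wider BCL2 family (11 of 16 listed genes had a probe set), 1 fell and none rose with L-Myc, 3 fell and none rose with C-Myc, and 1 rose and 1 fell with N-Myc. The list medians were -0.28, -0.40 and -0.32, beside -0.04, -0.05 and -0.03 over all genes. Over all 12986 genes read this way, 16.9% were called with L-Myc, 25.8% with C-Myc and 30.8% with N-Myc. Bcl2l12, a distant family member, fell by 1.35, 1.41 and 0.99 (SE 0.30 each), from 8.34 ± 0.09 (SD, n = 3) on preSC, with the L-Myc call lost without preSC 1 or L-Myc 1 (limma adjusted p up to 0.0845), the C-Myc call without C-Myc 1 (0.0608) and the N-Myc call without any preSC or N-Myc array (up to 0.151). Bcl2l14 rose by 1.04 (SE 0.30) with N-Myc, a call lost without preSC 1, preSC 2 or either N-Myc array (limma adjusted p up to 0.170). Bcl2l2, which encodes the guardian BCL-W, fell by 0.43 (SE 0.14) with C-Myc, a call lost without any array but C-Myc 1 (limma adjusted p up to 0.178), and differed by 0.27 on its next probe set. Bcl2l13 fell by 0.57 (SE 0.17) with C-Myc, a call lost without any preSC or N-Myc array or C-Myc 1 (limma adjusted p up to 0.196), and rose by 0.57 on its next probe set. On the next probe set, tested for 6 genes of this list, 1, 1 and 2 were called, all higher. Besides Bcl2l13 with C-Myc, these were Bcl2l2 with L-Myc (0.53) and, with N-Myc, Bcl2l13 (0.82) and Hrk (0.67). The limma adjusted p was 0.0472, 0.0112 and 0.0301 in that order, and none of the 3 passed on its brightest set there.

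Of 16 tested genes for the apoptosome, caspases and their inhibitors, 1 rose and none fell with L-Myc, 3 rose and 1 fell with C-Myc, and 2 rose and 1 fell with N-Myc. No caspase gene was among them. Cycs, the gene for cytochrome c, rose by 0.61 (SE 0.17) with N-Myc and by 0.73 on its next probe set, the first call being lost without preSC 2, preSC 3 or either N-Myc array (limma adjusted p up to 0.159). Birc2, which encodes the caspase and signalling regulator cIAP1, fell by 0.91 (SE 0.27) with C-Myc and by 1.39 (SE 0.27) with N-Myc, the C-Myc call being lost without any array but C-Myc 2 (limma adjusted p up to 0.180) and the N-Myc call without N-Myc 1 (0.0670). Birc5, which encodes survivin, rose by 0.66 (SE 0.17) with L-Myc and by 0.54 (SE 0.17) with C-Myc, calls lost without any array but the C-Myc arrays in L-Myc and without any but C-Myc 1 in C-Myc (limma adjusted p up to 0.159 and 0.194). Fadd, the adaptor of death receptors, rose by 0.52 (SE 0.16) with C-Myc and by 0.64 (SE 0.16) with N-Myc, but differed by -0.13 and -0.28 on its next probe set. The C-Myc call of Fadd was lost without any array but preSC 1 (limma adjusted p up to 0.127) and the N-Myc call without preSC 2 or either N-Myc array (up to 0.117). On the next probe set, tested for 9 of these genes, 2, 1 and 2 were called. Besides Cycs with N-Myc, these were Apaf1 with each virus and Xiap with L-Myc. Apaf1 rose there by 1.45, 1.39 and 1.44 (limma adjusted p at most 0.00231), but differed by -0.42, -0.39 and -0.39 on its brightest set without passing. Xiap rose there by 1.35 with L-Myc (limma adjusted p = 0.0127) and differed by 0.18 on its brightest set. The list medians were -0.06, -0.15 and -0.21.

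Of 18 genes for regulators and mitochondrial partners of the members, 1 rose and 4 fell with L-Myc, 5 rose and 3 fell with C-Myc, and 8 rose and 3 fell with N-Myc. Foxo3 and Foxo1 encode forkhead factors known to activate Bcl2l11 when survival signalling is low. Foxo3 fell from 9.63 ± 0.10 (SD, n = 3) on preSC by 1.21, 1.45 and 1.37 (SE 0.19 each, limma adjusted p = 0.00488, 0.00198 and 0.00228), also without any 1 array, and its other probe set fell by 0.97, 0.86 and 0.90. Foxo1 fell by 1.04, 1.08 and 1.27 (SE 0.22 each), with the L-Myc call lost without preSC 2 or L-Myc 2 (limma adjusted p up to 0.0802) and the C-Myc call without C-Myc 1 (0.0527). Mtch2, which encodes the mitochondrial receptor for cleaved BID, rose by 0.94 and 1.12 (SE 0.29 each) with C-Myc and N-Myc, with the C-Myc call lost without any preSC or N-Myc array or C-Myc 1 (limma adjusted p up to 0.196) and the N-Myc call without preSC 1, preSC 2 or either N-Myc array (up to 0.126). Ddit3, the stress factor CHOP, fell by 0.93 (SE 0.27) with L-Myc, a call lost without preSC 1, preSC 2 or any L-Myc or N-Myc array (limma adjusted p up to 0.154). Trp73, a relative of the p53 gene, fell by 1.00, 1.64 and 2.10 (SE 0.19 each) and differed by 0.10, 0.05 and 0.19 on its other probe set, and its L-Myc call was lost without L-Myc 2 (limma adjusted p = 0.0528). Mdm2 rose on its other probe set by 1.70, 1.93 and 1.89 (limma adjusted p at most 0.000668). On its brightest set it differed by 0.49 with L-Myc, without passing, and rose by 0.53 and 0.58 with C-Myc and N-Myc. Those 2 calls were each lost without some single arrays. Next probe sets fell for Huwe1 with C-Myc and N-Myc and for Fbxw7 with C-Myc. The list medians were 0.22, 0.27 and 0.30.

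The member probe set with the smallest p in the F-test over the 4 groups was Bid 1417045_at. The 3 genes closest to it over the 9 arrays, by the root mean square difference of values centred on their own means, were Ap3m1 (0.13), a subunit of a vesicle adaptor complex, 6820431F20Rik (0.16) and Ube2n (0.16), a ubiquitin-conjugating enzyme. Ap3m1 was 7.90, 8.02 and 7.89 on preSC and 9.76 to 10.11 on the 6 transduced arrays. Like Bid, all 3 genes were low on preSC and high on the transduced arrays, the split on which the array controls also differed.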

How the data were processed

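The authors deposited 1 table of log2 values, 1 per probe set and array, and the submitters' processing notes name RMA, affy and R 3.0.1; the versions of RMA and affy, the chip definition and the genome build are not given in the sources used here. RMA forces all arrays to a common distribution, so a shift shared by every transcript is removed, and it compresses differences of dim probe sets. Array medians lay between 6.02 and 6.07. Precision is limited by the number of arrays. Groups and replicate numbers came from the titles.

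A platform annotation table gave the gene names (34945 probe sets with 1 gene). Group means were fitted to all 9 arrays in R 4.3.3 by limma 3.58.1 (lmFit, then eBayes, 5 residual degrees of freedom, two-sided tests), checked on simulated data. There were 6 comparisons, 3 with preSC and 3 between viruses. Alternatives were other filters and scalings, fits of only 2 groups, a replicate block, averaging of close arrays, trend and robust eBayes, 1 probe set per gene, and leaving out each array. Named genes were all members, up to 4 of the largest calls per pathway list and comparison, and the 3 genes most like 1 member. Some pathway genes called on their next probe set were named as well. The text gives a part of the pathway genes. Members and lists were chosen with earlier results of these data known. The members' RefSeq promoter windows were searched on both strands; the Pmaip1 promoter is not reported here.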

Additional observations from a re-analysis of the deposited data

How the results depend on the processing

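Of 34 called changes of member probe sets against preSC, 17 kept direction and call in each alternative run, 17 lost the call in at least 1 and none reversed; 14 lost it when 1 of the 9 arrays was left out, where an arm of 1 array is assumed to vary like the others. With close arrays averaged, the counts of called members were 6 (L-Myc), 7 (C-Myc) and 4 (N-Myc) against preSC, a fit with fewer arrays in which N-Myc has 1. Leaving out 1 array gave 6 to 14 (L-Myc), 9 to 13 (C-Myc) and 6 to 13 (N-Myc) against preSC, while the share of all probe sets called ran from 11.5% to 27.5%, 19% to 31.4% and 13% to 39.7%; it gave 0 to 1 in L-Myc against C-Myc and in L-Myc against N-Myc, and 0 in C-Myc against N-Myc. On second-brightest probe sets, which covered 30 rather than 43 pathway genes, 5 were called with L-Myc instead of 7, 7 with C-Myc instead of 15 and 9 with N-Myc instead of 16. The share called over all second-brightest probe sets was not computed, so these counts are a description only. With the replicate block, in which preSC 3 has a number of its own and adds nothing to the differences, 9, 12 and 10 members were called against preSC (17.8%, 26.2% and 30.1% of all). Deviations of same-numbered arrays correlated between -0.01 and 0.44 over pairs of groups. The 0.44 was between L-Myc and C-Myc, beside 0.12 for L-Myc and N-Myc and 0.10 for C-Myc and N-Myc. No label says that a number marks a shared culture, so the main fit did not pair the arrays. Whether the numbers mark a shared factor is not known. With only L-Myc and N-Myc in the fit, 669 of all probe sets were called between them instead of 0, and no member. Without the filter on dim probe sets, 11, 13 and 12 of 29 were called (14.7%, 19.7% and 23.4% of all). Changes that kept their call in each run include Bid 1448560_at in all 3 comparisons and Bcl2l1 1426191_a_at with L-Myc and C-Myc. Both sets entered the test through the transduced arrays. The 34 changes also repeat probe sets over 3 comparisons with the same preSC arrays. Most members with no call lay within the error that groups of 2 and 3 arrays allow.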
